A study of Rattus norvegicus with 8 samples.

Results

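The SLC22 transporters studied here are Slc22a2, Slc22a3, Slc22a5, Slc22a7 and Slc22a8, 5 genes chosen by symbol, older symbols included, among the 21052 features tested on rat liver arrays. All 5 were measured, by 6 probes of 23615 on the array, Slc22a8 by 2 of them. Livers of 4 Sprague Dawley rats that had received lipopolysaccharide (LPS), the endotoxin of Gram-negative bacteria, were compared with those of 4 rats given vehicle, 0.9% sodium chloride, which the labels elsewhere call non-treated. The labels give 3 mg/kg LPS by intraperitoneal injection and 24 h to killing, state the age as not known and give no sex. The column headers instead give day 2 for all arrays and doses of 0 mkd for controls, 100 mkd for LPS array 1 and 1000 mkd for LPS arrays 2 to 4, a disagreement that the values cannot settle. Each liver was labelled with Cy5 and shared its array with Cy3-labelled RNA pooled from control livers, so a log2 ratio of 0 means a liver equal to the pool. Arrays are numbered in table order within a group, and these numbers carry no link between a control and an LPS rat.

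SLC22 proteins are membrane carriers of the major facilitator superfamily that move small organic ions across the plasma membrane. The organic cation transporters (OCT) carry positively charged drugs, monoamines and vitamins down their electrochemical gradient. The OCTN branch carries zwitterions such as carnitine, and the organic anion transporters (OAT) exchange anionic drugs and metabolites against dicarboxylates or other anions. In liver they stand mainly in the sinusoidal membrane and feed hepatocytes with substrates from blood. Bulk liver RNA cannot tell fewer cells of a type from less RNA per cell.

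The promoters of the genes on which the results turn are shown first. These are the 250 bases before the 1 transcript start per gene that the RefSeq promoter table takes on the GRCr8 rat assembly, written 5′ to 3′ on the strand of the gene. The annotated span of Slc22a5, Slc22a7 and Slc22a8 begins further upstream than that start, so the Slc22a5 window, its GC boxes included, lies largely inside the annotated gene, and the windows of Slc22a7 and Slc22a8 wholly. Slc22a5 and Slc22a3 passed the test described below, and Slc22a8 is shown because the brighter of its probes spread widely among control rats. Capitals mark matches, on either strand, to GGGCGG (GC box, bound by Sp1) or GTTAAT (a half-site of HNF1, a hepatocyte factor).
Slc22a5, chr10:38536073-38536322, minus strand: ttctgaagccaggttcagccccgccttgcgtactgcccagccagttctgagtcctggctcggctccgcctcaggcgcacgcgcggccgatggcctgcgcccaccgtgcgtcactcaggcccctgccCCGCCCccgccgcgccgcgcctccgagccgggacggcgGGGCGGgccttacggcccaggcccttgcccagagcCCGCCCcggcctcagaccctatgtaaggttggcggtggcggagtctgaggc
Slc22a3, chr1:50782968-50783217, plus strand: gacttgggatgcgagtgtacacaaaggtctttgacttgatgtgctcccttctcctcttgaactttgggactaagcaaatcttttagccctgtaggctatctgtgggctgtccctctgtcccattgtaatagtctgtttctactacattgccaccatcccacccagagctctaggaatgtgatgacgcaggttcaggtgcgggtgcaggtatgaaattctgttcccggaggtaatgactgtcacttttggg
Slc22a8, chr1:214927034-214927283, plus strand: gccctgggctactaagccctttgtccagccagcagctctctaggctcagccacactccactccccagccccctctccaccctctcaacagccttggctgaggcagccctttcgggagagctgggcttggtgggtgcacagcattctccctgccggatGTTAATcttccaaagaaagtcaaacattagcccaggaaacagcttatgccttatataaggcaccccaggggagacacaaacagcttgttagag
The Slc22a5 window held 74.4% G and C, 28 CpG dinucleotides and 3 GC boxes, where the median over 33469 promoter windows of this length was 51.2% and 5 CpG dinucleotides and 30.5% held a GC box. The Slc22a3 window held 48.8% G and C and 4 CpG dinucleotides, and the Slc22a8 window 56% and 2. An HNF1 half-site began 93 bases before that transcript start of Slc22a8, inside the annotated gene, a motif found in 6.45% of the windows. AGGTCA (half-site of nuclear receptors, 14.1% of windows), TTGCNNAA (C/EBP, 9.22%), TTCNNNGAA (STAT, 7.67%) and TATAAA (a core promoter motif, 12.9%) had no match in any of the 5 windows of these transporters, and no GC box was matched in those of Slc22a2, Slc22a3, Slc22a7 and Slc22a8. The GC box and TATAAA were added after the other motifs had been searched. A motif match is a description of these letters and says nothing about binding.

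Each array gave values for 23408 to 23529 probes, with a median liver intensity of 0.12 to 0.17 arbitrary units. Dim intensities carry 2 decimals, so a dim probe moves in steps of 0.01 units. Control array 3 stood apart from the other controls: across probes its log2 ratios correlated with those of the LPS arrays at 0.149 to 0.203, against -0.129 to 0.067 for the other controls. Without control array 3, the calls of all 5 transporters were as with it. Markers of hepatocytes, of other liver cells and of kidney tubule were read beside the transporters. Summed liver intensities were 33.7 to 41.9 units on control and 25.3 to 26.9 units on LPS arrays for the 6 hepatocyte markers with a value on every array, and 0.46 to 0.56 against 7.78 to 13.4 units for 8 neutrophil markers. Of the neutrophil markers S100a8, S100a9, Mmp8 and Csf3r rose, and Mpo, Elane, Cxcr2 and Itgam were not called. All but S100a8 and S100a9 had means under 0.1 units over the 8 arrays. Of 6 tested hepatocyte markers, Alb (albumin) fell by 1.40 and Serpina1 was higher by 1.95 on the log2 scale, the latter at a mean under 0.1 units, and 4 were not called. Called higher and lower were 2 and 2 of 8 Kupffer cell and macrophage markers (summed 18.1 to 24.6 units in controls, 14 to 17.4 units after LPS), 1 and 2 of 4 sinusoidal endothelial (38.7 to 45.2 against 25.6 to 34.3), 3 and 0 of 5 stellate cell (4.13 to 5.39 against 4.76 to 5.54), 1 and 0 of 4 cholangiocyte (0.63 to 0.895 against 0.775 to 0.955) and 0 and 1 of 6 kidney tubule markers, mostly of the proximal tubule, (0.5 to 0.73 against 0.7 to 0.81). Such sums follow their brightest genes and do not stand for every marker in a list. Mean intensities in control and LPS livers were 17.6 and 8.72 units for Alb, but 8.07 and 7.55 for the hepatocyte marker Asgr1. The Kupffer cell marker Clec4f read 9.58 and 1.9 units, and the macrophage marker Adgre1 1.81 and 3.45. Among endothelial markers, Kdr read 30.2 and 18.1 units and Lyve1 9.79 and 10.2. The part of the marker shifts in the results on the transporters was not tested.

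After LPS, the ratio to the pool was lower than in control livers for Slc22a5 and Slc22a3. For Slc22a2, Slc22a7 and Slc22a8 the difference did not pass the test. The mean liver intensity of Slc22a5 was also lower, 0.52 against 0.853 units, while that of Slc22a3 was 0.13 units in both groups. Slc22a5 showed the larger of both falls, 1.67-fold, and Slc22a3 fell 1.35-fold relative to the pool. With limma and Benjamini-Hochberg adjustment over all 21052 features at a threshold of 0.05, 2 of the 5 were called lower and 0 higher. Over all features, 24.7% were called, 12.4% lower and 12.2% higher, so calls were common on these arrays and 2 of 5 is too small a count to be read against them. The median difference was -0.26 over the 5 transporters and -0.04 over all features. The 4 LPS values lay outside the range of the control values in 3 of the 5 genes (Slc22a3, Slc22a5 and Slc22a7), as they did in 27.8% of all features.

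**Figure D1:**
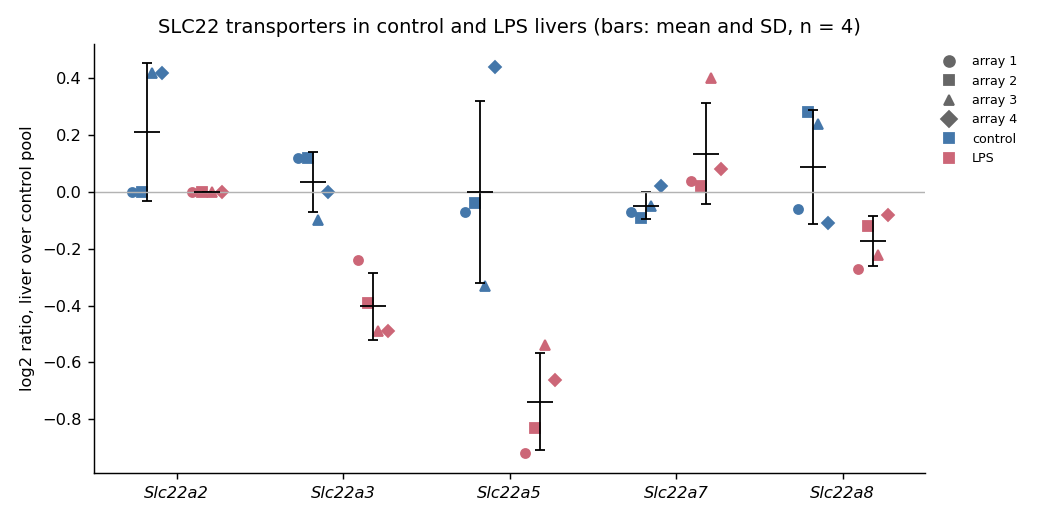
Log2 ratio of each liver over the control pool (y axis) for the 5 transporters (x axis), one point per array, blue for control and red for LPS, with the mean and SD of 4 arrays as bars; the Slc22a8 values are means of its 2 probes. All LPS points of Slc22a5 and Slc22a3 lie below their control points, while the control points of Slc22a5 spread from -0.33 to 0.44.

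Slc22a5 encodes OCTN2, the sodium-dependent carrier that brings carnitine into cells, where it serves the entry of long-chain fatty acids into mitochondria. Its control livers read 0.76, 0.78, 0.70 and 1.17 units on arrays 1 to 4, and its LPS livers 0.48, 0.49, 0.59 and 0.52 units. The pool read 0.80 to 0.91 units on all 8 arrays. Every LPS liver was thus dimmer than every control liver, with control array 4 far above the other controls. The log2 ratios to the pool were -0.07, -0.04, -0.33 and 0.44 in controls and -0.92, -0.83, -0.54 and -0.66 after LPS. The means were 0.00 ± 0.32 and -0.74 ± 0.17 (SD, n = 4 each). The difference in log2 ratio, LPS minus control, was -0.74 ± 0.17 (SE; 95% interval -1.13 to -0.35), adjusted p = 0.0163 in limma. The authors' deposited p-values, which compare liver and pool within 1 array, were 3.29e-07, 6.13e-05, 0.01 and 0.000778 on LPS arrays 1 to 4, and 0.7, 0.84, 0.07 and 0.00591 on control arrays 1 to 4. Control array 4 thus differed from the pool upward while the LPS livers differed downward. Without control array 4 the difference was -0.59 (limma adjusted p = 0.0167), the smallest over the fits that leave out 1 array, and without control array 3 it was -0.85 (limma adjusted p = 0.0114). LPS array 1, for which the headers give the lower dose, had the lowest ratio of all, and the other 3 LPS arrays alone gave -0.68 (limma adjusted p = 0.0452). The call was lost with quantile-normalized ratios (-0.55, limma adjusted p = 0.241) and against a minimum change of 1.5-fold.

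Slc22a3 encodes OCT3, also called the extraneuronal monoamine transporter, a low-affinity carrier of monoamines and cationic drugs. Its signal was low: 0.13, 0.13, 0.14 and 0.12 units in control livers and 0.11, 0.16, 0.10 and 0.15 units in LPS livers. The liver intensities of the groups overlapped, and their means were equal, at 0.130 ± 0.00816 and 0.130 ± 0.0294 units (SD, n = 4 each). The pool, by contrast, read 0.12, 0.12, 0.15 and 0.12 units beside the controls and 0.13, 0.21, 0.14 and 0.21 units beside the LPS livers. The lower ratio of LPS livers therefore stands on the comparison within each array, and on LPS arrays 2 and 4 both channels were brighter. Log2 ratios were 0.12, 0.12, -0.10 and 0.00 in controls and -0.24, -0.39, -0.49 and -0.49 after LPS, with no overlap. The difference in log2 ratio was -0.43 ± 0.08 (SE; 95% interval -0.62 to -0.25), adjusted p = 0.00642 in limma. The authors' deposited p-values for Slc22a3 were 0.18, 0.12, 0.00541 and 0.01 on LPS arrays 1 to 4 and 0.49 to 0.98 on control arrays. With the liver channel alone, after quantile normalization between arrays, the difference was -0.30 and was not called (limma adjusted p = 0.264). It was also not called with quantile-normalized ratios (-0.35, limma adjusted p = 0.081) or against a minimum change of 1.5-fold.

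**Figure D2:**
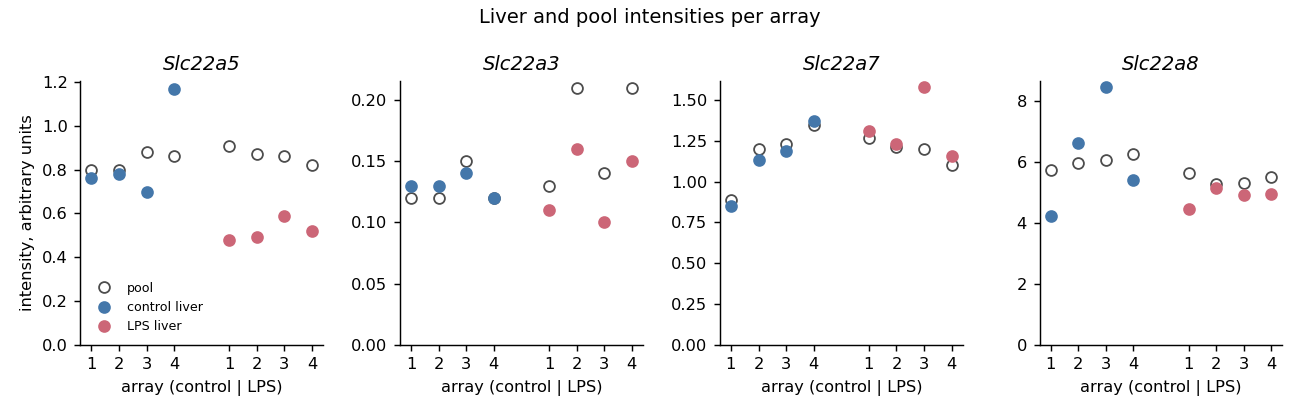
Intensity in arbitrary units (y axis, from 0) on each array (x axis) for Slc22a5, Slc22a3, Slc22a7 and the brighter probe of Slc22a8; filled points are livers, blue for control and red for LPS, and open points are the pool on the same array. For Slc22a5 the pool stays near one level and the LPS livers fall below it, whereas for Slc22a3 the pool itself is at 0.21 units on LPS arrays 2 and 4.

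Slc22a2 encodes OCT2, the organic cation carrier of the basolateral membrane of kidney tubules. Control livers read 0.06, 0.04, 0.04 and 0.04 units and LPS livers 0.03, 0.04, 0.03 and 0.03 units, a few steps of the 2 decimals. The pool read 0.03 to 0.06 units. On 6 of the 8 arrays liver and pool were equal, and on control arrays 3 and 4 a step of 0.01 units gave a log2 ratio of 0.42. The difference in log2 ratio was -0.21 ± 0.11 (SE; 95% interval -0.47 to 0.06), adjusted p = 0.223 in limma. The liver channel alone, after quantile normalization between arrays, gave -0.96 (limma adjusted p = 0.00109). That setting both leaves out the pool and normalizes the intensities, and the part of each in the -0.96 was not tested. At this intensity a change could not be settled.

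Slc22a7 encodes OAT2, an anion carrier of the sinusoidal membrane first cloned from rat liver. Control livers read 0.85, 1.13, 1.19 and 1.37 units and LPS livers 1.31, 1.23, 1.58 and 1.16 units, so the intensities overlapped. The pool moved with the livers and read 0.89, 1.20, 1.23 and 1.35 units beside the controls and 1.27, 1.21, 1.20 and 1.10 units beside the LPS livers. Log2 ratios were -0.07, -0.09, -0.05 and 0.02 in controls and 0.04, 0.02, 0.40 and 0.08 after LPS. At 2 decimals control array 4 and LPS array 2 both stood at 0.02, and only LPS array 3 lay well above the controls. The difference in log2 ratio was 0.18 ± 0.09 (SE; 95% interval -0.03 to 0.39), adjusted p = 0.184 in limma. Without LPS array 3 it was 0.09 (limma adjusted p = 0.209). The interval leaves room for a rise but not for a fall of the size seen in Slc22a5.

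Slc22a8 encodes OAT3, a carrier of anionic drugs and conjugates best known from the basolateral membrane of kidney tubules. Its brighter probe read 4.22, 6.61, 8.44 and 5.40 units in control livers and 4.46, 5.15, 4.91 and 4.93 units in LPS livers. The LPS livers all lay within the range of the controls, and the pool stayed between 5.29 and 6.27 units. Log2 ratios of this probe were -0.44, 0.15, 0.48 and -0.22 in controls and -0.34, -0.04, -0.12 and -0.16 after LPS. The difference of the brighter probe was -0.16 ± 0.19 (SE; 95% interval -0.61 to 0.29), adjusted p = 0.587 in limma with each probe on its own. The dimmer probe read 0.05, 0.04, 0.04 and 0.04 units in control livers and 0.07, 0.07, 0.04 and 0.06 units in LPS livers, and the pool 0.03 to 0.04 units beside the controls and 0.05 to 0.08 units beside the LPS livers. Liver and pool were thus both brighter on most LPS arrays, by a few steps of 0.01 units. Its log2 ratios were 0.32, 0.42, 0.00 and 0.00 in controls and -0.19, -0.19, -0.32 and 0.00 after LPS. Its difference was -0.36 ± 0.12 (SE), adjusted p = 0.0636 in limma. Averaged over both probes, Slc22a8 gave -0.26 ± 0.10 (SE; 95% interval -0.50 to -0.02), adjusted p = 0.112 in limma, with the larger difference on the dimmer probe, whose mean liver intensity was not lower after LPS.

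The brighter Slc22a8 probe was set beside a relative chosen after its values were seen, Slc22a4, which encodes OCTN1, a carrier of the antioxidant ergothioneine. Slc22a4 log2 ratios were -0.56, 0.18, 0.54 and -0.22 in controls and -0.10, -0.03, -0.24 and -0.17 after LPS. Both genes were lowest on control array 1 and highest on control array 3. The root mean square difference between both was 0.068 over the 4 control arrays and 0.137 over the 4 LPS arrays, in log2 units, where both read the same RNA and the same pool. Of 13670 genes, 5 lay nearer to the Slc22a8 probe than Slc22a4 did on the control arrays, 1630 on the LPS arrays and 1 over all 8. Their SDs were 0.40 and 0.48 among controls and 0.13 and 0.09 among LPS livers. Slc22a4 was not called (-0.12 ± 0.22 SE, adjusted p = 0.724 in limma), and without control array 3 its difference was 0.07.

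**Figure D3:**
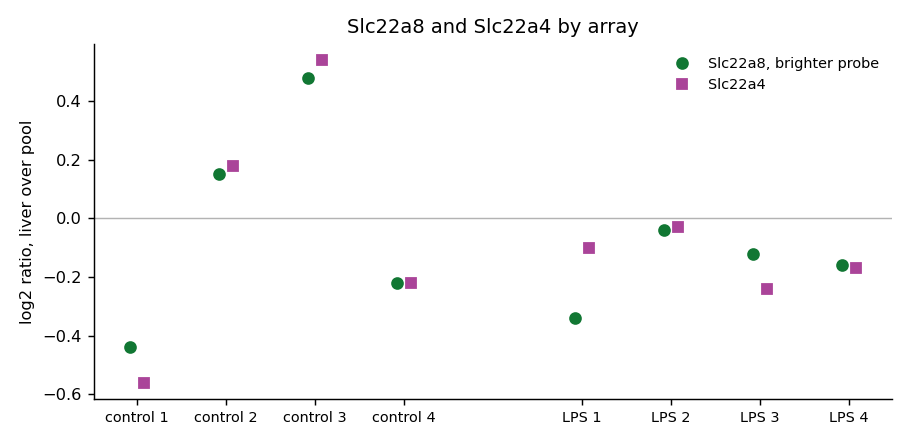
Log2 ratio of liver over pool (y axis) on each array (x axis) for the brighter Slc22a8 probe, green circles, and for Slc22a4, purple squares. The control arrays span -0.44 to 0.48 and -0.56 to 0.54, and all LPS points lie within those ranges.

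Of 18 SLC22 genes analysed, 17 were tested: 4 were lower after LPS, 0 higher and 13 not called. Over all features 24.7% were called, 12.4% lower and 12.2% higher. The family count describes these genes and is no result about the family. The mean was lower after LPS in 12 of the 17 and higher in 5, with a median difference of -0.13, against -0.04 over all features. In 7 of the 17 the mean liver intensity was under 0.1 units. Beside the 5 transporters described above, 2 of 12 tested relatives fell, with a median difference of -0.08. Slc22a23, an orphan member, fell by 0.55 ± 0.13 (SE, limma adjusted p = 0.0197), but its 3 probes differed, at -0.59, -0.98 and -0.09, the last not called (adjusted p = 0.329). The urate exchanger gene Slc22a12 fell by 0.19 ± 0.05 (SE, limma adjusted p = 0.0326) at 0.08 to 0.13 units in livers. Its LPS livers read 0.10, 0.13, 0.08 and 0.12 units beside pools of 0.11, 0.14, 0.09 and 0.14 units. That fall therefore rests on small steps of the 2 decimals. Slc22a12 lost its call without control array 1, LPS array 1, LPS array 3 or LPS array 4, and Slc22a23 without LPS array 2 or LPS array 4. Without LPS array 4 neither of them was called, with limma adjusted p-values of 0.0745 and 0.0511.

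The other 10 tested relatives were not called. Slc22a6, which encodes OAT1 of the kidney, differed by 0.17, Slc22a13 by -0.14, Slc22a14 by 0.21, Slc22a15 by -0.04, Slc22a18 by 0.20, Slc22a20 by -0.19, Slc22a22, a prostaglandin carrier, by -0.13, Slc22a24 by 0.41 and Slc22a25 by -0.05 on the log2 scale, with Slc22a4 as given above. The adjusted p of Slc22a24 was 0.0542, at 0.02 to 0.06 units in livers, and reached 0.0169 without control array 4 in limma. Without LPS array 1, Slc22a14 (0.28, limma adjusted p = 0.00485) and Slc22a20 (-0.23, limma adjusted p = 0.0484) were called, the former at 0.03 to 0.06 units. Slc22a17, known as a receptor for lipocalin 2, had no value on LPS arrays 3 and 4 and was not tested. Its log2 ratios were -0.01, 0.20, 0.00 and -0.17 in controls and -0.92 and -1.13 on LPS arrays 1 and 2, below all controls.

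**Figure D4:**
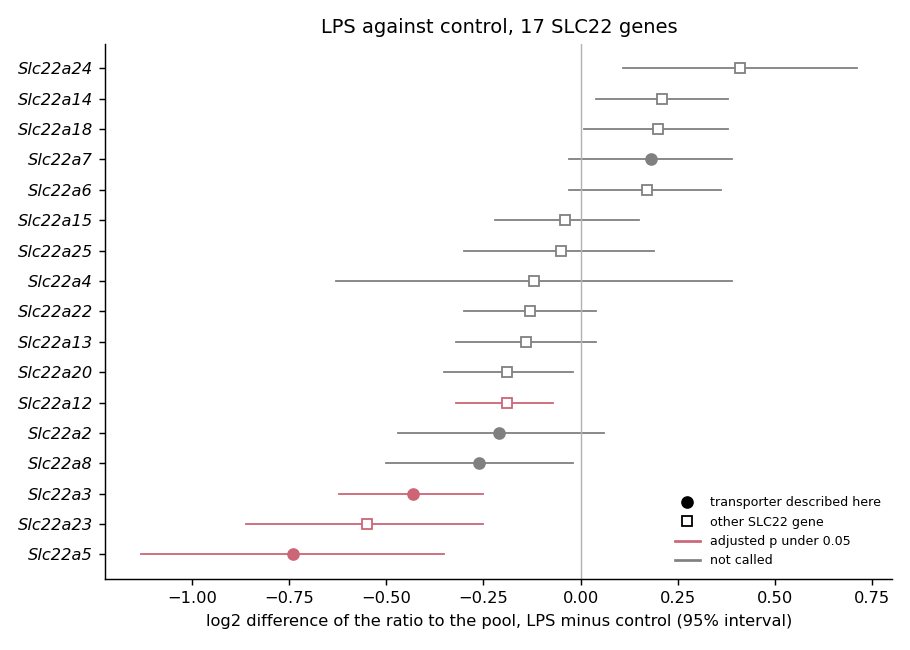
Difference in log2 ratio, LPS minus control (x axis), with its 95% interval for 17 SLC22 genes (y axis); circles are the 5 transporters described in depth, squares the other SLC22 genes, and red marks an adjusted p under 0.05. The 4 called genes all lie below 0, from -0.74 in Slc22a5 to -0.19 in Slc22a12.

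Slc22a5 was the only one of the 5 transporters called with a difference of at least 1.5-fold, as 4.39% of all features were in the lower direction. Among 13670 genes with a value on every array, those whose log2 ratios over the 8 arrays lay nearest to it were Slc49a4, Scpep1 and Serpine2. Their root mean square differences from Slc22a5 were 0.103, 0.134 and 0.135 in log2 units. Their differences in log2 ratio, -0.70, -0.77 and -0.69, describe that likeness and are no separate result, since genes this near to Slc22a5 had to be lower too.

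Genes of carnitine supply and use, the pathway that OCTN2 serves, had 3 of 9 tested members lower, 0 higher and 6 not called, with a median difference of -0.26. Over all features 12.4% were called lower and 12.2% higher, with a median of -0.04. No set test was run, so the counts of this list and the next ones are descriptions only. Cpt2, the inner-membrane carnitine palmitoyltransferase, fell by 0.81 ± 0.15 (SE, limma adjusted p = 0.00652), Crat, the carnitine acetyltransferase, by 0.56 ± 0.08 (adjusted p = 0.00252) and Tmlhe, which opens carnitine synthesis, by 0.50 ± 0.08 (adjusted p = 0.00466). Of these, Crat was dim, with means of 0.0725 and 0.065 units in control and LPS livers. Slc25a20, the mitochondrial carnitine carrier, differed by -0.06 ± 0.10 (SE) and Bbox1, the last enzyme of carnitine synthesis, by -0.21 ± 0.12 (SE), neither called. Quantile-normalized ratios left 1 of the 9 called.

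Other carriers of organic ions moved both ways: 8 of 19 tested were lower, 3 higher and 8 not called, with a median of -0.46. Slc10a1, the sodium-bile acid uptake carrier, fell by 1.74 ± 0.18 (SE), Slco1a4, an organic anion uptake carrier, by 1.05 ± 0.23 and Abcc2, the canalicular conjugate pump, by 0.96 ± 0.17, with limma adjusted p-values of 0.000624, 0.0154 and 0.00568. The drug efflux pump Abcb1b rose by 1.53 ± 0.30, the efflux pump Abcg2 by 1.14 ± 0.34 and Slc47a1, which encodes the cation-proton exchanger MATE1, by 0.31 ± 0.08, with limma adjusted p-values of 0.0089, 0.0464 and 0.0228. All 3 genes that rose had a low signal in control livers. Mean liver intensities in control and LPS livers were 0.0425 and 0.115 units for Abcb1b, 0.105 and 0.343 for Abcg2, and 0.09 and 0.182 for Slc47a1. Abcg2 lost its call when any 1 array other than LPS array 1 was dropped, and Slc47a1 without control array 1 or any single LPS array. Quantile-normalized ratios left 2 of the 19 called.

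Enzymes that inactivate monoamines, substrates of OCT3, had 1 of 7 tested members lower, the indolethylamine methyltransferase gene Inmt, 0 higher and 6 not called, with a median of -0.02. Inmt fell by 4.16 ± 0.33 (SE, limma adjusted p = 0.000284). Without control array 2 or LPS array 1, 2 were called. Of 15 transcription factors known to act on SLC22 or related hepatic genes, 7 were lower, 0 higher and 8 not called, with a median of -0.36. The corepressor gene Nr0b2 fell by 3.16 ± 0.63 (SE, limma adjusted p = 0.00954), Nr1i2, which encodes the xenobiotic receptor PXR, fell by 0.87 ± 0.11 (adjusted p = 0.00155) and Nr1i3, which encodes CAR, fell by 0.83 ± 0.22 (adjusted p = 0.0295). The Nr1i3 signal was low, with means of 0.113 and 0.0625 units in control and LPS livers. Nr1i3 kept its call only without control array 2 or LPS array 2 among the fits that leave out 1 array, and the other limma adjusted p-values ran from 0.057 to 0.0785. Hnf4a, a driver of hepatocyte genes including SLC22 carriers, differed by -0.15 ± 0.06 (SE, limma adjusted p = 0.0914). Without control array 1, control array 4, LPS array 1 or LPS array 3, 4 of the 15 factors were called. PDZ scaffold proteins hold OCTN and OAT carriers at the membrane. Of 4 tested genes of such scaffolds and their partners, Pdzk1 rose by 0.57 ± 0.14 (SE, limma adjusted p = 0.021), 3 were not called and the median was 0.06. That call was lost without control array 1, control array 2, LPS array 2 or LPS array 4.

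**Figure D5:**
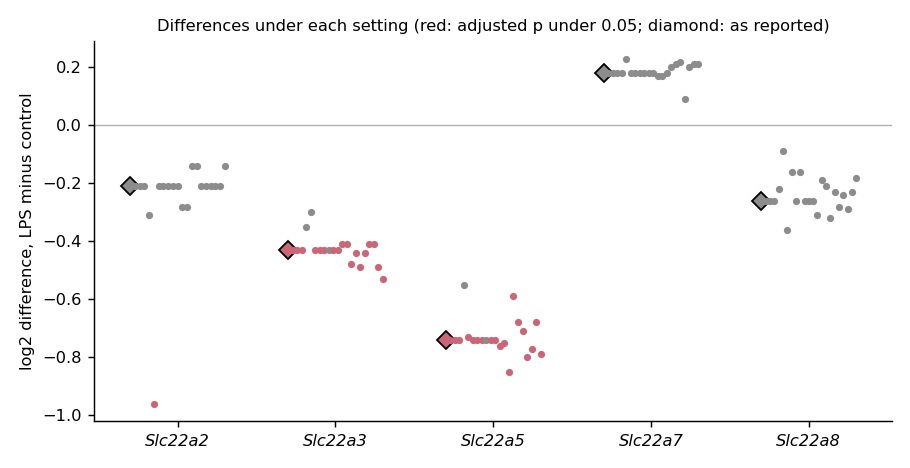
Difference in log2 ratio, LPS minus control (y axis), for the 5 transporters (x axis) as reported (diamonds) and under each alternative setting (points), with red for an adjusted p under 0.05. Slc22a5 and Slc22a3 stay below 0 in all settings, many of which leave the difference itself unchanged. The lone red point of Slc22a2 at -0.96 is the liver channel alone after quantile normalization.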

How the data were processed

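Liver RNA of 8 rats, 4 LPS and 4 control, was measured on 2-colour Agilent arrays after 2 rounds of amplification from 100 ng, per the labels' protocols. The deposited intensity values are processed by the authors, linear and in arbitrary units, for liver and pool; Agilent Feature Extraction 8.5.1.1 made them, as the submitters' processing notes list it. How background and dye bias were handled is not given in the sources used here. Each deposited p-value compares both channels of 1 array and was used only as a description. The deposited series matrix holds log10 ratios of liver over pool that match the table. Headers name a group and no replicate, so columns were mapped to groups. The ratios of each array matched those of the series matrix sample with the same group and number (Pearson r = 1.0000).

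The members and gene lists were chosen with earlier results of these data known. Lists were carnitine supply and use, other carriers of organic ions, monoamine inactivation, regulators, PDZ scaffolds with their partners, and markers of 7 cell types. Probes were named by RefSeq accession (4176 probes), else by symbol (GRCr8 gene table). The log2 ratio per probe was averaged over the probes of a symbol; 188 probes lacking 3 values in either group were dropped. limma 3.58.1 in R 4.3.3 (lmFit, eBayes; 1.54 prior degrees of freedom) compared groups over 21052 features, with Benjamini-Hochberg adjustment. Genes named are the 5 transporters, the other SLC22 genes (1 gene of the family is not reported here), up to 3 largest called rises and falls per list, and the 3 nearest to a member called at 1.5-fold; Slc25a20, Bbox1, Hnf4a and the markers were added after their values were seen. A simulation gave a change to 200 of 21052 features. Of these changes, limma called 40.3% at 1.5-fold, 77.6% at 2-fold and 95.5% at 4-fold, with 5 false calls. In the rat data 5190 features were called, far more than were changed in the simulation. The Benjamini-Hochberg adjustment depends on that number, so these shares need not hold for the rat data. The number of arrays limits precision. Labels call replicates biological. Tables were joined in Python 3.11.15 with pandas 2.3.3.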

Additional observations from a re-analysis of the deposited data

Results flagged for a closer look

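Of 68 groups of 4 arrays in 34 named genes, 10 held an array far from the other 3 by Dixon's ratio, where chance flags about 1 group in 20. The 68 include groups with 4 equal values, such as Slc22a2 after LPS, for which the ratio cannot be computed. In Slc22a7, LPS array 3 stood at a log2 ratio of 0.40 against 0.02 to 0.08 on the other LPS arrays. In Scpep1, LPS array 1 stood at -1.03 against -0.67 to -0.66, and control array 4 at 0.33 against -0.10 to -0.07. In the other 7 groups the remaining 3 control arrays were all at 0.00, from channels equal at 2 decimals. Control array 1 was apart in Slc22a6 (-0.22), Slc22a22 (-0.14) and Crat (0.17), control array 2 in Slc22a12 (0.14), control array 3 in Slc22a15 (-0.22) and Slc22a25 (-0.32), and control array 4 in Slc22a24 (0.42).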

How the results depend on the processing

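None of the alternatives run turned the sign of any of the 5 transporters (20 for Slc22a2, which had no value with dim probes left out, and 21 or 22 for the others). With quantile-normalized ratios, Slc22a3 (-0.35, adjusted p = 0.081) and Slc22a5 (-0.55, adjusted p = 0.241) lost their calls in limma, 1518 features were called in place of 5190, and 0 SLC22 relatives, 1 carnitine gene, 2 other carriers, 2 regulators and 0 PDZ genes were called; the cause was not tested. With the liver channel alone, quantile-normalized between arrays, Slc22a3 was not called (-0.30) and Slc22a2 was (-0.96). In that setting 1 relative was called in place of 2. The cause was not tested. Against a minimum change of 1.5-fold, which asks for a larger effect by construction, 391 features were called, Slc22a3 (-0.43) and Slc22a5 (-0.74) were not (adjusted p = 1 in limma), and 0 relatives, 0 carnitine genes, 1 other carrier, 0 regulators and 0 PDZ genes were called. Robust eBayes called 1 relative. With dim probes left out, 2 monoamine genes were called, and without LPS array 1, whose header gives the lower dose, 2 monoamine genes and 4 regulators. Without both control array 3 and LPS array 1, a setting chosen after seeing the data, 1 relative, 2 monoamine genes and 0 PDZ genes were called.

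Leaving out 1 array at a time gave -0.28 to -0.14 for Slc22a2, -0.49 to -0.41 for Slc22a3, -0.85 to -0.59 for Slc22a5, 0.09 to 0.22 for Slc22a7 and -0.32 to -0.19 for Slc22a8, with no call gained or lost among the 5. Features called ranged from 4004 to 4834, relatives from 0 to 3, other carriers from 8 to 11, monoamine genes from 1 to 2, regulators from 4 to 6 and PDZ genes from 0 to 1, while 3 carnitine genes were called each time. The replicate numbers of the labels were tried as a block on the series matrix, whose columns carry them: Slc22a5 kept its call (-0.74, adjusted p = 0.0438) and 0 relatives were called in place of 2. Deviations of same-numbered samples correlated at -0.018 to 0.166, so the numbers are not shown to pair the rats.

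Among relatives not called, signs turned with quantile-normalized ratios in Slc22a4 (0.04), Slc22a15 (0.02) and Slc22a25 (0.01), with the liver channel alone in Slc22a6 (-0.04), Slc22a13 (0.19), Slc22a14 (-0.09) and Slc22a25 (0.07), and in Slc22a4 without control array 3 (0.07), also with LPS array 1 left out (0.05); the cause was not tested. Low signal limits Slc22a2, Slc22a3 and the dimmer Slc22a8 probe.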
